A study of Mus musculus with 22 samples.

Results

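Pcp2 and Gng13 are 2 G-protein signalling genes of cerebellar Purkinje cells (PCs), taken here as the loci XLOC_056388 and XLOC_024895 among the 66494 loci of the deposited tables. They were chosen by locus identifier and followed through every library. Total RNA from sorted PCs was sequenced in 10 libraries, 5 of Tsc1+/+ control mice (labelled WW) and 5 of Tsc1 fl/fl mutant mice (labelled CC). RNA bound to tagged ribosomes was isolated by translating ribosome affinity purification (TRAP) in 12 libraries, which form 4 groups of 3. They are untreated controls, untreated mutants, and controls and mutants given rapamycin, an inhibitor of the mTOR kinase.

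The labels give a C57BL/6 background for all 22 samples. TSC1 is part of the complex that restrains mTOR, and in the mutants Cre recombinase driven by the L7 promoter deletes the floxed Tsc1 alleles in PCs. L7 is another name for Pcp2, so the promoter of one of the genes described here also drives the transgenes. For sorting, PCs carried L7-GFP. The methods give L7Cre in both genotypes, whereas the gating of the control is given as L7-GFP alone. For TRAP, animals of both genotypes carried L7Cre and a Cre-activated RPL10A-EGFP ribosomal protein at the Rosa26 locus. Cerebella for sorting were taken at either of 2 ages that the labels do not assign to libraries, and neither an age for the TRAP libraries nor a dose or schedule of rapamycin is given there. The deleted gene was not paired with a locus, so deletion could not be checked on it.

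In G-protein signalling, a receptor on the cell surface exchanges the nucleotide of a Gα subunit, which then parts from a Gβγ pair, and Gα and Gβγ both act on enzymes and channels. Pcp2 is a small protein with GoLoco motifs that binds Gα subunits of the Gi/Go class and modulates their nucleotide state, and it is among the best known markers of PCs. Gng13 is a γ subunit, the partner of a β subunit in the Gβγ pair. In the cerebellum, metabotropic glutamate receptors and GABA-B receptors of PCs signal through such proteins.

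Pcp2 lies on the minus strand of chromosome 8 (GRCm38, chr8:3623371-3625545). Its assembled locus shares a splice junction with a reference transcript of 5 exons and 534 spliced bases. Gng13 lies on the plus strand of chromosome 17 (chr17:25717171-25719406) and matches its reference transcript of 3 exons and 719 spliced bases. Each gene overlaps a protein-coding gene on the other strand. Pet100 covers all 2175 bases of the Pcp2 locus, and Chtf18 overlaps 481 bases at the 3′ end of Gng13. The SMART-Seq kit that the methods name for sorted PCs does not mark strand, so unspliced reads of the overlapping genes cannot be told apart there. For TRAP the methods name no kit, while the labels list this one in a protocol shared by both assays, so whether strand was kept there is less certain. The values below carry that uncertainty.

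The sequences upstream of the start sites are shown because the Pcp2 promoter marks the cells studied here and because both genes varied together in sorted PCs. They are from RefSeq (GRCm38.p6), and both members were found there. The stretch of Pcp2, chr8:3625607-3625778 on the minus strand, runs from 231 to 60 bases before the start and lies in no annotated exon. Capitals mark ATTGG, the reverse complement of the CCAAT motif. The stretch of Gng13, chr17:25716922-25717170 on the plus strand, runs from 250 to 2 bases before the start and has no capitals.
Pcp2: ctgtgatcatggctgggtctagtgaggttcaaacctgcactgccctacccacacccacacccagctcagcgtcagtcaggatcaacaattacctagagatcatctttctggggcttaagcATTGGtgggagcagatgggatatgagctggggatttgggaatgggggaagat
Gng13: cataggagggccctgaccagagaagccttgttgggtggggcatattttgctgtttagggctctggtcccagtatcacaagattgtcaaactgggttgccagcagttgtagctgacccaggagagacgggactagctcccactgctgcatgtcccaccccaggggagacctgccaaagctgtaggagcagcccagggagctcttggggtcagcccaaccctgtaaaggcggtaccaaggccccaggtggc

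Both strands of the 250 bases before each start were searched for the TATA box (TATAAA), for CCAAT, for the GC box (GGGCGG) and for AGGTCA, the core sequence bound by nuclear receptors. The Pcp2 window held CCAAT at 111 bases and AGGTCA at 12 bases before the start, and neither of the other motifs. The Gng13 window held none of the 4. Of 32851 RefSeq promoters, 12.4% held the TATA box, 33.8% CCAAT, 32.7% the GC box and 14% the nuclear receptor core. GC content was 52.8% for the window of Pcp2 and 58.8% for that of Gng13.

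The values are normalised values, that is, estimated fragments per locus divided by a size factor for each library. Depth was 43.3 to 86.2 M fragments in sorted PCs and 2.47 to 6.38 M in TRAP, and the tables were scaled separately, so that levels are compared only within a table. Both genes were covered well in both assays, with 5990 to 192312 fragments of Pcp2 and 3548 to 106094 of Gng13 in sorted PCs. The TRAP libraries held 530 to 5073 fragments of Pcp2 and 445 to 3808 of Gng13. Markers of PCs were abundant in both assays. The summed value of the 15 paired PC markers was 46724 to 485425 in sorted PCs, where that of the astroglial markers Apoe and Gfap reached 105887 to 274135. In mutant libraries 61, 74 and 103 the astroglial pair exceeded the PC markers, with sums of 243410 to 274135 against 46724 to 74156. In TRAP the PC markers summed to 7465 to 11192 and the astroglial pair to 49.5 to 486.5. Markers of granule cells, oligodendrocytes and interneurons were not paired with a locus, and so the sorted and TRAP RNA was not checked for those cells.

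In sorted control PCs, the value of Pcp2 was 159421 in library 45, 158523 in 48, 144089 in 144a, 119851 in 144b and 75544.6 in 176. By their numbers, 144a and 144b are from the same animal. In mutant PCs it was 131341 in library 167, 124891 in 191, 39429 in 74, 16989.3 in 61 and 6100.83 in 103. The mutants thus fell into separate levels, with 167 and 191 inside the range of the controls and 74, 61 and 103 below every control. Controls had a mean of 131486 ± 35125 (SD, n = 5), and the mean of the mutants was 63750 ± 60017 (SD, n = 5).

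Gng13 had the same arrangement. Its value in controls was 87453.6 in library 48, 71950.2 in 144b, 70919.4 in 45, 69557 in 144a and 34001.5 in 176. In mutants it was 68930.3 in library 167, 46905.1 in 191, 23102.4 in 74, 9217.22 in 61 and 3613.66 in 103. The order of the mutant libraries was the same for both genes, and control 176 was the lowest control for both. Controls averaged 66776 ± 19707 (SD, n = 5), and the mean of mutants was 30354 ± 27278 (SD, n = 5).

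Across all 10 libraries, the log2 fold change of Pcp2 was -1.79 ± 0.79 (SE), with an unadjusted limma p of 0.0481 and a Benjamini-Hochberg adjusted p of 0.437. That of Gng13 was -1.75 ± 0.74 (SE), with an unadjusted limma p of 0.0398 and an adjusted p of 0.424. Neither was past the cut-offs that the study used, a fold change of more than 2 with an unadjusted p below 0.01, which 242 of 16455 loci (1.47%) were. None of these loci had an adjusted limma p under 0.05, whereas 1861 had an unadjusted p under 0.05. The 95% interval of the difference was -3.56 to -0.02 for Pcp2 and -3.39 to -0.10 for Gng13, on the log2 scale. These values count 144a and 144b separately. With that pair averaged as 1 library, the fold change was -1.78 for Pcp2 and -1.71 for Gng13, with unadjusted limma p of 0.0767 and 0.0688.

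The low mutants were all of one description code. The labels give a code to each sorted library, and mutants 61, 74 and 103 have code MS2723, controls 45, 48 and 144b have MS2872, and the other 4 libraries have MS3005. Only MS3005 holds both genotypes. The highest value among the MS2723 mutants was 39429 for Pcp2, against a lowest value of 75544.6 in the other 7 libraries, and 23102.4 for Gng13, against 34001.5. On the log2 scale the MS2723 mutants differed from the others by a mean of -2.99 for Pcp2 and -2.75 for Gng13. As a background, 1542 of 16455 loci (9.37%) had all 3 MS2723 values below all 7 others. Within MS3005, mutants were at 124891 and 131341 for Pcp2 and controls at 75544.6 and 144089, and the log2 difference was 0.30 ± 0.388 (SE), with an unadjusted limma p of 0.485. For Gng13 the difference within MS3005 was 0.23 ± 0.457 (SE), with an unadjusted limma p of 0.646 and overlapping values. With 2 libraries of each genotype, this comparison is of low precision. Because every MS2723 library is a mutant, code and genotype cannot be told apart for these 3 libraries.

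**Figure D1:**
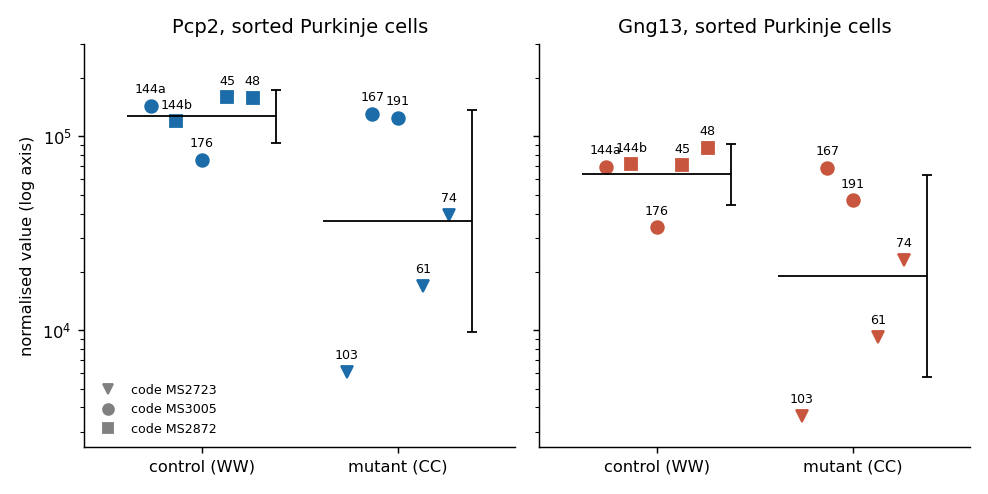
Normalised value of Pcp2 and Gng13 in each sorted library (log axis) by genotype, with the library number above each point and the description code as its shape. Lines are geometric means and bars 1 SD of the log2 values over 5 libraries. The 3 MS2723 mutants sit below all other libraries for both genes, and the MS3005 mutants lie among the controls.

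Most of the paired PC markers were lower in the same libraries. Of the 14 paired PC markers that passed the filter on low values, 12 had all 3 MS2723 values below the other 7 (85.7%, against 9.37% of all loci that passed it), and their median log2 difference was -3.17, against 0.06 over those loci. These included Calb1 (calbindin, a calcium buffer, -2.76), Car8 (an inhibitor of the IP3 receptor, -3.61), Slc1a6 (a glutamate transporter, -3.93) and Homer3 (a postsynaptic scaffold, -3.02). Lhx1, a transcription factor, was at -1.55 with overlapping values. Marker names came from lists that the study selected in part on these samples. The share of all loci is therefore not a like background for these markers. The astroglial markers were at 0.43 for Apoe and -0.12 for Gfap, and their sum was 243410 to 274135 in the MS2723 mutants against 105887 to 271056 in the controls. The microglial markers Csf1r and C1qc were at -0.60 and -0.98, and the vascular marker Flt1 at -1.17, all with overlapping values. Within MS3005, every paired PC marker was also lower on average in mutants than in controls, from -0.04 for Calb1 to -1.21 for Itpr1. Pcp2 and Gng13 were at 0.30 and 0.23 in that comparison. The mean log2 value of the 15 PC markers was 11.57 to 11.64 in the MS3005 mutants, below every control (11.75 to 12.65). In bulk RNA, fewer PCs in a sample and less of these transcripts per PC cannot be told apart, and the part of PC content in the values of Pcp2 and Gng13 was not tested directly.

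Set against the PC markers of the same library, the mean values were not lower in mutants. The log2 value of Pcp2 exceeded the mean of the 15 markers by 5.01 ± 0.41 (SD, n = 5) in mutants and by 4.65 ± 0.24 (SD, n = 5) in controls, a difference of 0.37 (two-sided exact permutation test, p = 0.127). For Gng13 the excess was 4.06 ± 0.32 (SD, n = 5) and 3.65 ± 0.36 (SD, n = 5), respectively, a difference of 0.41 (two-sided exact permutation test, p = 0.0952). The markers themselves differed by -2.16 on average between genotypes. This measure was chosen after the values had been seen, and it is relative to genes that also varied. The marker names came from lists that the study selected in part on these samples. The permutation p-values therefore cannot decide whether either gene differs from PC markers in general. For Pcp2 the excess was 5.36 and 5.37 in the MS3005 mutants, 4.35 to 5.05 in the MS2723 mutants and 4.45 to 5.06 in controls. For Gng13 it was 3.95 and 4.43, 3.6 to 4.28 and 3.3 to 4.21, respectively.

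**Figure D2:**
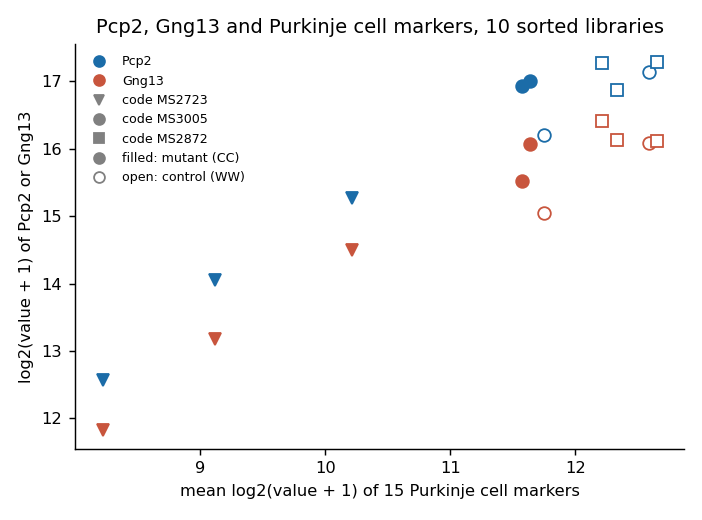
Log2(value + 1) of Pcp2 and Gng13 against the mean log2(value + 1) of the 15 PC markers in the 10 sorted libraries. Shape gives the description code, and filled points are mutants. The markers range from 8.22 to 10.2 in the MS2723 mutants, from 11.57 to 11.64 in the MS3005 mutants and from 11.75 to 12.65 in the controls. Both genes are lowest in the 3 libraries where the markers are lowest.

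Pcp2 and Gng13 kept a similar ratio. In control PCs the Pcp2 value was 1.67 to 2.25 times that of Gng13. The ratio in mutants was 1.69 in library 103, 1.71 in 74, 1.84 in 61, 1.91 in 167 and 2.66 in 191. Even library 103, with the lowest value of both genes, had a ratio within the range of the controls, and library 191 was the only sorted library above it. Mean log2 ratios were 0.95 ± 0.27 (SD, n = 5) in mutants and 0.99 ± 0.19 (SD, n = 5) in controls, a difference of -0.04 (two-sided exact permutation test, p = 0.81; the smallest p possible was 0.00794). Per base of the reference transcript, Pcp2 was 2.7 ± 0.344 (SD, n = 5) times Gng13 in controls and 2.64 ± 0.54 (SD, n = 5) times in mutants.

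Among 1235 named loci, the pattern of Gng13 over the 10 sorted libraries was the second nearest to that of Pcp2, by the root-mean-square difference of centred log2 values (0.209), and that of Pcp2 was the nearest to Gng13. Nefl, the neurofilament light chain, was nearest to Pcp2 (0.16) and Cnih2, an auxiliary protein of AMPA receptors, followed (0.222), then Rell2 (0.256) and Clec2l (0.294). For Gng13 the others were Nefl (0.255), Cnih2 (0.263), Rell2 (0.268) and Hapln4, a link protein of perineuronal nets (0.364). For scale, Pcp2 itself varied by 1.53 and Gng13 by 1.44 around their means. The patterns compared share their libraries, among them the 3 MS2723 mutants, in which both genes were lowest. Gene names came from lists that the study selected in part on these samples.

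The other paired genes of G-protein signalling were next examined. Of 220 genes on the list, 26 were paired with a locus, Pcp2 and Gng13 included, and 23 passed the filter on low values in sorted PCs. Of these, 4 were past the thresholds, all lower in mutants, and none was higher (background 1.47%). They included Gpr20, which passed the filter only through its higher values in controls. The median log2 fold change of the 21 others tested, without Pcp2 and Gng13, was -0.67 and 18 were below 0, while the median of all loci was 0.03. Because names came from lists of genes that the study found changed, these counts are not independent of the direction.

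Of 33 G-protein subunit genes on the list, 5 were paired with a locus, Gng13 included, and none of these passed the thresholds. The log2 fold change in sorted PCs was -1.97 ± 0.68 (SE) for Gnal, the olfactory-type stimulatory α subunit, and -0.51 ± 0.15 for Gna11, a Gq-class α subunit. The stimulatory subunit Gnas was at -0.67 ± 0.20 and the β subunit Gnb1 at -0.57 ± 0.19. The other paired subunits therefore lay below 0 as Gng13 did. Every mutant library of Gna11 was below every control, as were 229 of 16455 loci (1.39%).

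Among regulators, Rgs8, a GTPase-activating protein enriched in PCs, was at -3.06 ± 1.04 (SE) with an unadjusted limma p of 0.0152, Rgs22 was at -3.88 ± 1.23 with an unadjusted limma p of 0.0103, and Arrb1 (β-arrestin 1, which uncouples receptors) was at -0.13 ± 0.25. None passed the thresholds. Rgs22 passed the filter on low values only through its controls (mean log2 value 7.95, against 4.07 in mutants). Among receptors, Gabbr1, a subunit of the GABA-B receptor, fell by 1.24 ± 0.31 on the log2 scale, with an unadjusted limma p of 0.00267 and an adjusted p of 0.394. Gabbr2, its partner subunit, was at -0.41 ± 0.20 and did not pass. The orphan receptors Gpr27 (-1.80 ± 0.45) and Gpr20 (-2.62 ± 0.82) also fell, with every mutant below every control. For Gpr20 the mean log2 value was 6.45 in controls and 3.83 in mutants, so it passed the filter only through its controls, and its fall is not independent of that. Among effectors, Itpr1, the IP3 receptor that releases calcium, fell by 3.21 ± 0.81, with an unadjusted limma p of 0.00265 and an adjusted p of 0.394. The 3 other genes above 0 were the phospholipase C effector Plcb2 (3.05 ± 1.06), the histamine receptor Hrh1 (1.31 ± 0.46) and the receptor Gpr75 (0.46 ± 0.14). None of these passed, with unadjusted limma p of 0.0164, 0.0176 and 0.0098 and a fold of Gpr75 under the threshold. Plcb2 passed the filter only through its mutants (mean log2 value 6.93, against 3.88 in controls). Of the 21 genes other than Pcp2 and Gng13 that passed the filter, 8 had all MS2723 values below the other 7 libraries (38.1%, against 9.37% of all loci that passed it). The limit on names given above holds for this share too.

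**Figure D3:**
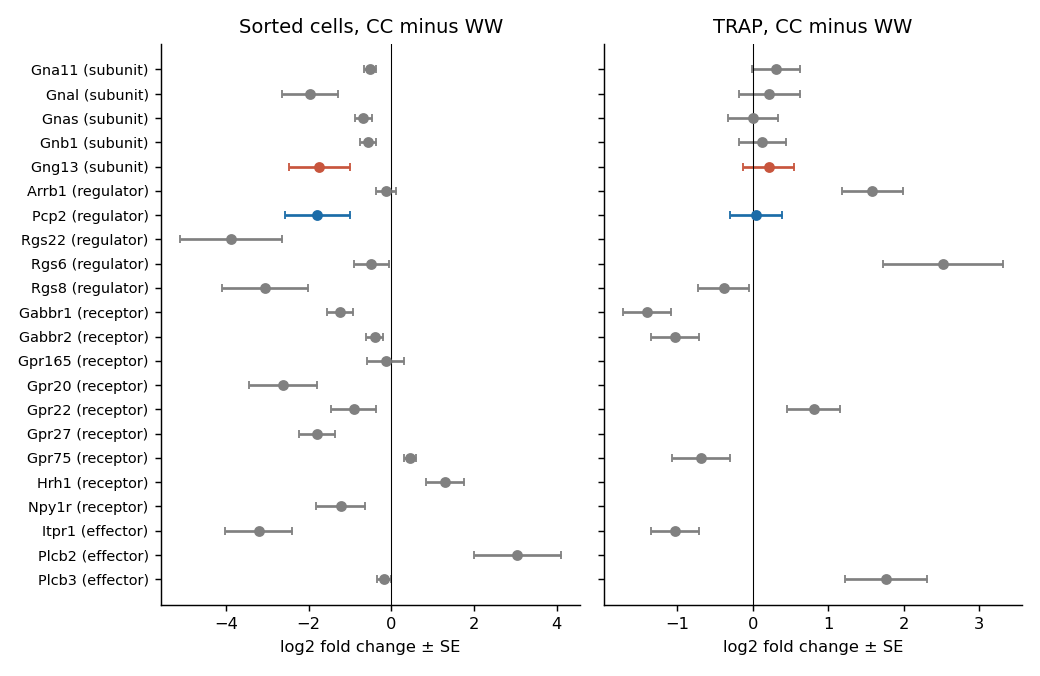
Log2 fold change (mutant minus control) with its SE for G-protein signalling genes that passed the filter in sorted PCs, on the left in sorted PCs (5 against 5 libraries) and on the right in TRAP (3 against 3), by role. Pcp2 is blue and Gng13 red. Genes without a point on the right were not tested in TRAP, and the horizontal scales differ. Pcp2 and Gng13 lie at -1.79 and -1.75 on the left and at 0.04 and 0.21 on the right.

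In ribosome-bound RNA without rapamycin, the values of both genes overlapped between genotypes. The TRAP value of Pcp2 in controls was 2050.71, 1406.1 and 2034.21 in replicates 1 to 3, and in mutants 2059.74, 2025.78 and 1539.16. For Gng13 it was 904.71, 817.336 and 1257.09 in controls and 1080.97, 1158.07 and 1155.41 in mutants. The mutants were close to each other and lay within the range of the controls.

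The log2 fold change was 0.04 ± 0.35 (SE) for Pcp2, with an unadjusted limma p of 0.905, and 0.21 ± 0.34 (SE) for Gng13, with an unadjusted limma p of 0.55. Adjusted p was 0.986 and 0.889, respectively, by limma. The 95% interval of the log2 difference was -0.78 to 0.87 for Pcp2 and -0.59 to 1.01 for Gng13. In the same comparison 189 of 9658 loci (1.96%) passed the thresholds. The mutant replicate 3 stood apart in scaling. Its values summed to 860843, against 3009387 or more in every other TRAP library, and without it the fold change of Pcp2 was 0.18. The size of the difference depended on the scaling. With quantile normalization it was 0.49 for Pcp2 and 0.64 for Gng13, with unadjusted limma p of 0.173 and 0.114. With equal totals it was 0.44 and 0.61, with unadjusted limma p of 0.683 and 0.572. The median of all loci was 0.06 with quantile normalization and 0.47 with equal totals, so the latter moved all loci upward.

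Among the G-protein genes in TRAP, 16 of 26 passed the filter, of which 1 was past the thresholds in each direction. Gabbr1 fell by 1.40 ± 0.32 on the log2 scale, with an unadjusted limma p of 0.00323 and an adjusted p of 0.323. Arrb1 rose by 1.58 ± 0.40, with an unadjusted limma p of 0.00557 and an adjusted p of 0.392. The subunits Gnas, Gnb1, Gnal and Gna11 were between 0.01 and 0.31, and none passed. The median of the 14 tested without Pcp2 and Gng13 was 0.07, as was that of all loci (0.07). Of the 15 PC markers, Skor2 alone passed (-1.36 ± 0.34, SE), and their median was -0.23. The summed PC markers were 7921 to 8684 in untreated mutants against 10219 to 11192 in untreated controls. Of 7 astroglial markers on the list, only 2, Gfap and Apoe, were paired with a locus. Their names came from lists that the study selected in part on these samples, so their change is not independent of that selection. The other astroglial markers could not be looked at by name. Gfap rose by 2.71 ± 0.45 (SE) and Apoe by 1.92 ± 0.49 (SE), with unadjusted limma p of 0.000499 and 0.00545 and adjusted p of 0.188 and 0.392. The summed value of Gfap and Apoe was 358.4 to 486.5 in untreated mutants against 55.12 to 153 in untreated controls. The microglial markers Csf1r and C1qc and the vascular marker Flt1 had low values, each higher in every untreated mutant than in every untreated control. Their mean log2 values were 3.79, 2.09 and 2.15 in mutants against 1.55, 0 and 0 in controls. Csf1r did not pass the thresholds (unadjusted limma p of 0.013), and the others did not pass the filter. The part of these non-PC markers in the values of Pcp2 and Gng13 was not tested.

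The difference between the genotype effects in the assays, the change in translational efficiency (ΔTE) as the study defines it, was 1.83 ± 0.90 (SE) for Pcp2 and 1.96 ± 0.83 (SE) for Gng13 on the log2 scale. It is given as a description only, since both genes were named through a list that the study had selected on ΔTE in these samples. It consists almost wholly of the difference in sorted PCs, -1.79 and -1.75, against 0.04 and 0.21 in TRAP. With the sorted libraries of code MS3005 alone, it was -0.25 for Pcp2 and -0.01 for Gng13.

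With rapamycin, the TRAP value of Pcp2 was 507.502, 1623.74 and 1253.21 in control replicates 1 to 3 and 1534.45, 1605.1 and 1584.3 in mutants. Replicate 1 of the treated controls was the lowest of all 12 TRAP libraries, and the treated mutants were close to each other. Gng13 was 591.767, 786.689 and 535.224 in treated controls and 888.237, 599.724 and 884.145 in treated mutants. In both genotypes every treated library had less Gng13 than every untreated one. As a background, 7.18% of loci in controls and 9.38% in mutants did so.

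Other markers moved with rapamycin. In mutants, Gfap fell by 2.39 ± 0.39 (SE) and Apoe by 2.06 ± 0.50 (SE) on the log2 scale, with unadjusted limma p of 0.000514 and 0.00489 and adjusted p of 0.393 and 0.509. Their summed value was 51.62 to 151.4 in treated mutants against 358.4 to 486.5 in untreated ones. In controls the pair did not pass the thresholds, at -0.10 for Gfap and -0.05 for Apoe, with a sum of 49.5 to 117.1 in treated and 55.12 to 153 in untreated libraries. None of the 15 PC markers passed in either genotype. Their median was -0.52 in controls, with 13 below 0, and 0.07 in mutants, with 6 below 0. The PC markers summed to 7465 to 9333 in treated controls, against 10219 to 11192 in untreated ones, and to 8618 to 9936 in treated mutants. The part of these markers in the values of Pcp2 and Gng13 was not tested.

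In controls, the log2 fold change with rapamycin was -0.83 ± 0.65 (SE) for Pcp2 and -0.63 ± 0.54 for Gng13, with unadjusted limma p of 0.245 and 0.283. In mutants it was -0.24 ± 0.30 (SE) for Pcp2 and -0.54 ± 0.32 for Gng13, with unadjusted limma p of 0.457 and 0.137. With quantile normalization, the values in mutants were -0.55 for Pcp2 and -0.84 for Gng13, and with equal totals, where the median of all loci was -0.80, they were -1.02 and -1.32. With the reported scaling, adjusted limma p ranged from 0.654 to 0.868, and neither gene passed the thresholds in either genotype. The thresholds were passed by 91 of 8682 loci in controls (1.05%) and 169 of 9664 in mutants (1.75%). The median over all loci was -0.31 in controls and -0.04 in mutants. Without replicate 1 of the treated controls, the fold change of Pcp2 in controls was -0.34. The limma-voom alternative gave an unadjusted p of 0.0384 for Pcp2 in controls and 0.0161 for Gng13 in mutants, still short of the threshold. Since treated libraries are compared with the untreated groups used above, these comparisons are not independent of them.

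Under rapamycin, the log2 fold change of mutants over controls was 0.64 ± 0.63 (SE) for Pcp2 and 0.31 ± 0.52 for Gng13, with unadjusted limma p of 0.343 and 0.577, against 107 of 8728 loci past the thresholds (1.23%). For Pcp2 it was 0.14 without replicate 1 of the treated controls and 0.98 without their replicate 2. Treated mutants differed from untreated controls by -0.20 ± 0.38 (SE) and -0.33 ± 0.41, with unadjusted limma p of 0.621 and 0.447. That comparison had 77 of 9429 loci past the thresholds (0.817%). The interaction of genotype and rapamycin over all 12 libraries was 0.59 ± 0.68 (SE) for Pcp2 and 0.09 ± 0.56 for Gng13, with unadjusted limma p of 0.402 and 0.871, and 175 of 9174 loci (1.91%) passed. Without the same libraries, the interaction of Pcp2 was 0.10 and 0.94, respectively. The median interaction of all loci was 0.33. With libraries scaled to equal totals, it was -0.45, and the interaction of both genes was then below 0.

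Ordered by mean TRAP value, Pcp2 was at 1875 ± 291 in mutants, 1830 ± 367 in controls, 1575 ± 36.3 in treated mutants and 1128 ± 569 in treated controls (SD, n = 3 each). Gng13 had the same order, with 1131 ± 43.8, 993 ± 233, 790.7 ± 165 and 637.9 ± 132 (SD, n = 3 each). For neighbours in these orders the limma tests above gave an unadjusted p of 0.343 or more, so none was shown to differ beyond the spread between libraries.

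**Figure D4:**
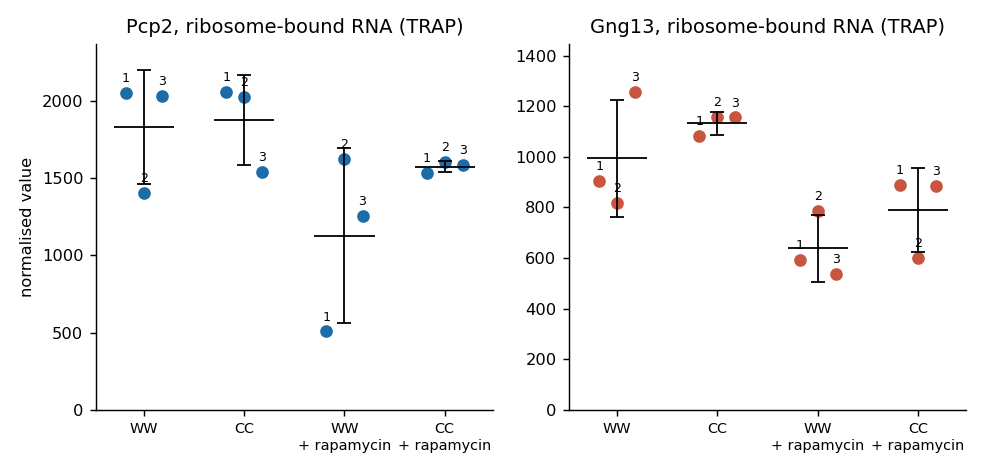
Normalised TRAP value of Pcp2 and Gng13 in each library of the 4 groups, with the replicate number above each point. Lines are means and bars 1 SD over 3 libraries. The treated groups have the lower means, and for Pcp2 the treated controls spread from 507.502 to 1623.74.

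The ratio of Pcp2 to Gng13 in TRAP was 1.62 to 2.27 in controls, 1.33 to 1.91 in mutants, 0.858 to 2.34 in treated controls and 1.73 to 2.68 in treated mutants. Replicate 1 of the treated controls, at 0.858, was the only one of the 22 libraries with more Gng13 than Pcp2. Between untreated genotypes the mean log2 ratio differed by -0.17 (two-sided exact permutation test, p = 0.6), and 3 against 3 libraries cannot go below 0.1. In the 4 other comparisons of TRAP groups the same test gave an exact p between 0.5 and 0.9.

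**Figure D5:**
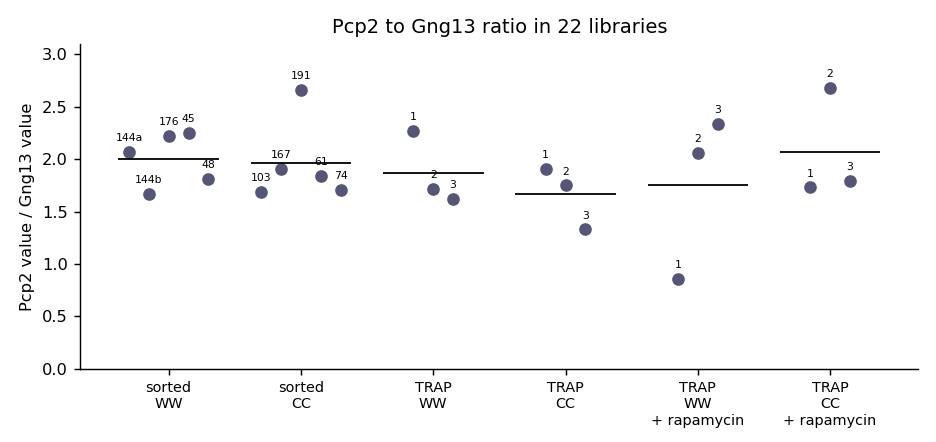
Ratio of the Pcp2 to the Gng13 value in each of the 22 libraries by group, with the replicate or library number above each point and the group mean as a line. The libraries lie between 1.33 and 2.34, apart from 3. Replicate 1 of the treated controls lies at 0.858, and sorted mutant 191 and replicate 2 of the treated mutants at 2.66 and 2.68.

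Over the 12 TRAP libraries the patterns of Pcp2 and Gng13 were less alike than in sorted PCs. Their root-mean-square difference was 0.407, against 0.527 for the variation of Pcp2 itself and 0.391 for that of Gng13. Gng13 was in place 31 among 900 named loci by nearness to Pcp2, and Pcp2 in place 78 by nearness to Gng13. The nearest to Pcp2 were Sec14l1 (0.242), Arhgef33 (0.247), Hsbp1 (0.253), Strap (0.268) and Csnk2b, the regulatory subunit of casein kinase 2 (0.307). Those nearest to Gng13 were Vamp2, a synaptic vesicle SNARE (0.194), Fkbp1a, the immunophilin that binds rapamycin (0.234), Trim37 (0.238), Uhmk1 (0.249) and Doc2b, a calcium sensor of exocytosis (0.253).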

How the data were processed

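Total RNA of sorted PCs and TRAP RNA were sequenced as paired-end reads. According to the methods and the submitters' processing notes, reads were trimmed with Trimmomatic 0.39, mapped to GRCm38 with STAR 2.7.0f and quantified with Cufflinks 2.2.1. The deposited files hold normalised signal values: per locus, the authors divided an estimated number of fragments by 1 size factor per library. The most common low value was taken as the worth of 1 fragment to give depth. Since not all values are whole multiples of it, no count test was the main test.

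Values were transformed to log2(value + 1). Loci whose mean reached 5 in sorted PCs, or 2 in TRAP, were compared with limma 3.58.1 in R 4.3.3, with only the groups compared in each fit and all 12 TRAP libraries for the interaction. A locus was called past a fold of 2 at an unadjusted p below 0.01, as in the study, with Benjamini-Hochberg adjustment beside it. Folds are on the log2(value + 1) scale. Ratios used exact permutation tests over libraries. Groups and numbers came from the labels, and the genotype codes were read as the study uses them. Nothing says that replicates are separate animals throughout, so p-values measure the spread between these libraries.

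Names came only from supplementary files, which pair 1635 loci with a symbol at an exact or junction-sharing match. Genes named are the pair, paired members of the G-protein and marker lists, and the 5 nearest patterns. Some genes of these lists enter the counts and are not reported here by name. The members and lists were chosen with earlier results of these data known. Fits were tested on simulated data. Alternatives were other pseudocounts, filters, scalings, an intensity trend, limma-voom, description code, averaged 144a and 144b, a replicate block, all TRAP groups in one fit and each library left out.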

Additional observations from a re-analysis of the deposited data

Results flagged for a closer look

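Of 10 sets of 5 values checked (both genes, their ratio and their level relative to the PC markers, in each sorted genotype), 1 held a library far from the others. The Pcp2 to Gng13 ratio of mutant library 191 was 2.66, and the next highest mutant was at 1.91. The gap was 0.773 of the range of the 5 mutants, above the critical value of 0.71. Such a check picks out about 1 group in 20 by chance. The cause was not tested.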

How the results depend on the processing

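Neither Pcp2 nor Gng13 passed the thresholds under any alternative in any comparison. Of their 154 log2 fold changes under settings other than a left-out library, 142 kept their direction. In sorted PCs the difference was 0.2958 for Pcp2 and 0.2255 for Gng13, above 0, both with description code as a term and with code MS3005 alone. Because only MS3005 holds both genotypes, these settings give the same estimate by design and are not separate checks. Without the MS2723 mutants it was 0.01277 for Pcp2. Relative to the PC markers, an alternative chosen after seeing the data, it was 0.369 and 0.411, and for Pcp2 in treated mutants against untreated controls 0.0651. With equal totals, Gng13 under rapamycin was at -0.116, and the interaction at -0.2245 for Pcp2 and -0.7259 for Gng13 (-0.1279 for Gng13 after quantile normalization). The log ratio in sorted PCs was 0.07027 in code MS3005 and 0.1784 without the MS2723 mutants. ΔTE in code MS3005 was -0.2522 for Pcp2 and -0.01315 for Gng13.

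Leaving out each library gave a log2 fold change in sorted PCs of -2.248 (without mutant 167) to -1.141 (without mutant 103) for Pcp2 and -2.21 to -1.147 for Gng13 (the same libraries). In TRAP the genotype effect was -0.1359 to 0.1796 for Pcp2 without rapamycin and 0.1422 to 0.9801 with it, and the interaction was 0.0986 to 0.9365 for Pcp2 and -0.08906 to 0.2809 for Gng13. The sorted log ratio was -0.1583 to 0.006023. ΔTE was 1.184 to 2.291 for Pcp2 and 1.359 to 2.422 for Gng13.

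Counts of loci past the thresholds moved more. In sorted PCs (242) there were 702 with no filter, 33 with code as a term, 100 in MS3005 and 57 without the MS2723 mutants. For genotype in TRAP (189) there were 441 with no filter, 78 with equal totals and 52 in one fit of all groups. For rapamycin in controls (91) there were 39 with a pseudocount of 0.1, 509 with no filter, 24 with the stricter filter, 53 with an intensity trend and 425 in one fit. For rapamycin in mutants (169) there were 410 with no filter, 109 with equal totals, 301 with limma-voom and 44 in one fit. For genotype under rapamycin (107) there were 55 with a pseudocount of 0.1, 535 with no filter, 32 with the stricter filter, 71 with limma-voom and 435 in one fit. For treated mutants against untreated controls (77) there were 121 with a pseudocount of 10, 41 with 0.1, 218 with no filter, 116 with equal totals and 42 in one fit. For the interaction (175) there were 95 with a pseudocount of 10, 381 with no filter, 36 with the stricter filter, 28 with equal totals and 101 with an intensity trend. With a library left out, these counts were, in the same order, 104 to 530, 98 to 354, 29 to 434, 72 to 221, 36 to 430, 56 to 121 and 121 to 529. Equal totals moved the share of called loci that were higher from 48.1% to 94.9% for genotype in TRAP, from 27.2% to 0.917% for rapamycin in mutants, from 78.5% to 53.6% for genotype under rapamycin and from 54.5% to 15.5% for treated mutants against untreated controls. For the interaction it moved from 86.9% to 35.7% and in sorted PCs from 26.9% to 37.3%, and quantile normalization moved it from 18.7% to 35.5% for rapamycin in controls. Filters moved it further in some comparisons. The stricter filter gave 75% for rapamycin in controls (of 24 called), 25% for genotype under rapamycin (of 32) and 47.2% for the interaction (of 36), and no filter gave 67.9% in sorted PCs and 71.7% for genotype in TRAP. The median over all loci was then 0.47 for genotype in TRAP and -0.80 for rapamycin in mutants with equal totals.

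The TRAP groups share replicate numbers, but correlations between the deviations of same-numbered libraries were only -0.0654 to 0.0444. The numbers were therefore not treated as pairs in the main fits. The labels do not say whether they pair the samples, and with 3 libraries per group this check cannot exclude a weak pairing. With the replicate block the counts were 202, 71, 100, 64, 66 and 159 in the order of the TRAP comparisons above, and no call on Pcp2 or Gng13 changed. The causes of these changes were not tested. With 3 libraries per TRAP group and 2 of each genotype in MS3005, moderate differences in these genes may go undetected.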
